A study of Mus musculus with 12 samples.

Results

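The group of miR-15, miR-16, miR-322 and miR-503 is made up of microRNAs (miRNAs) that begin with nearly the same bases. Its members here are the 7 array names mmu-miR-15a, mmu-miR-15b, mmu-miR-16, mmu-miR-195, mmu-miR-322, mmu-miR-497 and mmu-miR-503, taken by name from the 650 miRNAs, 611 of mouse and 39 viral, that the array measures. Of the 7, 6 passed the filter on dim probes and were tested, among 175 miRNAs tested in all. The RNA came from mouse embryonic fibroblasts (MEFs), cultured connective tissue cells, of the background strain C57BL/6. The 6 groups were ATF6aKO cells, which lack the stress factor ATF6a, untreated or given 2 ug/mL tunicamycin for 12 h or 24 h, and ATF6aWT cells under the same 3 conditions. They are called KO and WT below. Tunicamycin blocks N-linked glycosylation, so that unfolded proteins build up in the endoplasmic reticulum and ATF6a, a membrane-bound transcription factor there, is cleaved and moves to the nucleus. Each group had 2 arrays, from experiments that the series text calls independent, and the number of embryos or cell lines behind each genotype is not given in the sources used here. The series title and design ask which miRNAs respond to tunicamycin in a manner that depends on ATF6a.

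A miRNA guides Argonaute proteins to messenger RNAs mainly through its seed, bases 2 to 8 from its 5′ end, and lowers their translation and stability. miRNAs of the miR-15/16 group are known for holding back the cell cycle through targets such as cyclins D1, D3 and E1, Cdc25a and Wee1, and for lowering the survival protein Bcl2. miR-322, the mouse counterpart of human miR-424, and miR-503 are made from 1 X-chromosome transcript and are known for regulating the cell cycle during muscle differentiation. Members of the group have overlapping targets, so that a cell's supply of this seed is the sum over several genes.

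The mature sequences, taken from RefSeq (GRCm38.p6), are shown because the shared seed is what defines the group. Each is written 5′ to 3′ with the seed, bases 2 to 8, in capitals.
mmu-miR-15a: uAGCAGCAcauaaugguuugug
mmu-miR-15b: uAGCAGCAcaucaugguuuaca
mmu-miR-16: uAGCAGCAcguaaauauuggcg
mmu-miR-195: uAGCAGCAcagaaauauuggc
mmu-miR-322: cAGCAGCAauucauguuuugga
mmu-miR-497: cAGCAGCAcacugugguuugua
mmu-miR-503: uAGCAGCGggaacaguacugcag

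The first 6 have the same seed, which 10 of the 1679 mature mouse names in RefSeq (0.596%) carry. The seed of miR-503 differs from that of miR-15a by A8G, with positions counted from 1 at the 5′ end, and 1 of the 1679 names carries it. The genes lie in 4 places: miR-15a and 1 copy of miR-16 on chromosome 14, miR-15b and the other copy of miR-16 on chromosome 3, miR-195 and miR-497 on chromosome 11, and miR-322 and miR-503 on chromosome X. Coordinates are left out, since no genome build is named in the array files. Both miR-16 genes give the same mature sequence, and the array cannot tell them apart. miR-16 and miR-195 differ over their first 21 bases only by G10A and U11G. The closest other pair, miR-15a and miR-15b, differs at 4 of 22 positions. Whether probes of such close members also bind the other member was not tested.

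To scale the arrays, each was divided by the 75th percentile of its signals over 87 probes that passed the background flag on all 12 arrays, 5 of them probes of members. A log2 level of 0 is thus that percentile, and the floor set for dim signals is a log2 level of -5.02. Levels of different members come from different probes and are not compared with each other. All arrays were labelled from 100 ng of total RNA and scaled on their own signals, so levels are relative. A lower level can mean fewer cells with the miRNA, less of it per cell or higher signals of the scaling probes. These cannot be told apart in such bulk samples. The 4 untreated arrays lay on 1 slide and the 8 treated arrays on another, which means that a treatment difference and a slide difference cannot be told apart. KO and WT arrays lay in different rows of each slide, so genotype and row position cannot be told apart either. Replicates 1 and 2 of the treated groups were scanned in separate runs. In the run of the replicate 2 arrays, run 4, each array had 85 to 144 miRNAs well above background, where run 3 had 129 to 171 and the untreated runs 1 and 2 had 160 to 170. No probe of the array reads the ATF6a messenger RNA, and the loss of ATF6a could not be checked here. Of 7 miRNAs listed as fibroblast markers, 5 were well above background on all 12 arrays and miR-145 on none. Of 18 markers of other cell types, 17 were well above background on no array and miR-206 on 3.

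Among miR-15a, miR-15b, miR-16 and miR-322, the last differed most, with treatment and with genotype. After tunicamycin it was 1.94- to 2.06-fold lower in WT cells and, at 24 h, 1.88-fold lower in KO cells. KO cells at 12 h were also lower, with miR-322 well above background on 1 of the 2 arrays. KO less WT, it was 1.80-fold lower untreated and 1.64-fold lower at 24 h, and it was lower at 12 h too. On the second KO array at 24 h, only 1 of the 2 miR-322 probes was well above background. The level of miR-322 there lay below the lowest signal of that array that was. Under other ways of scaling, background correction or probe summary, most calls of miR-322 were lost. miR-15a, miR-15b and miR-16, well above background on all arrays, passed the test in none of the treatment comparisons. miR-195 and miR-497 were well above background only on the untreated arrays, and miR-503 on none. The floor limits how far miR-195 and miR-497 can fall, so they are not ranked against miR-322.

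The log2 level of miR-322 in KO cells was -2.24 and -2.20 untreated, -3.22 and -3.52 after 12 h, and -3.04 and -3.22 after 24 h of tunicamycin. WT cells had -1.39 and -1.36 untreated, -2.30 and -2.35 after 12 h, and -2.57 and -2.26 after 24 h. Within each genotype all 4 treated arrays lay below both untreated ones, and in each condition both KO arrays lay below both WT arrays. From high to low, the groups ran untreated WT, untreated KO, WT at 12 h, WT at 24 h, KO at 24 h and KO at 12 h. The WT groups at 12 h and 24 h overlapped, and untreated KO cells lay only just above them. The KO groups at 24 h and at 12 h met at -3.22.

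**Figure D1:**
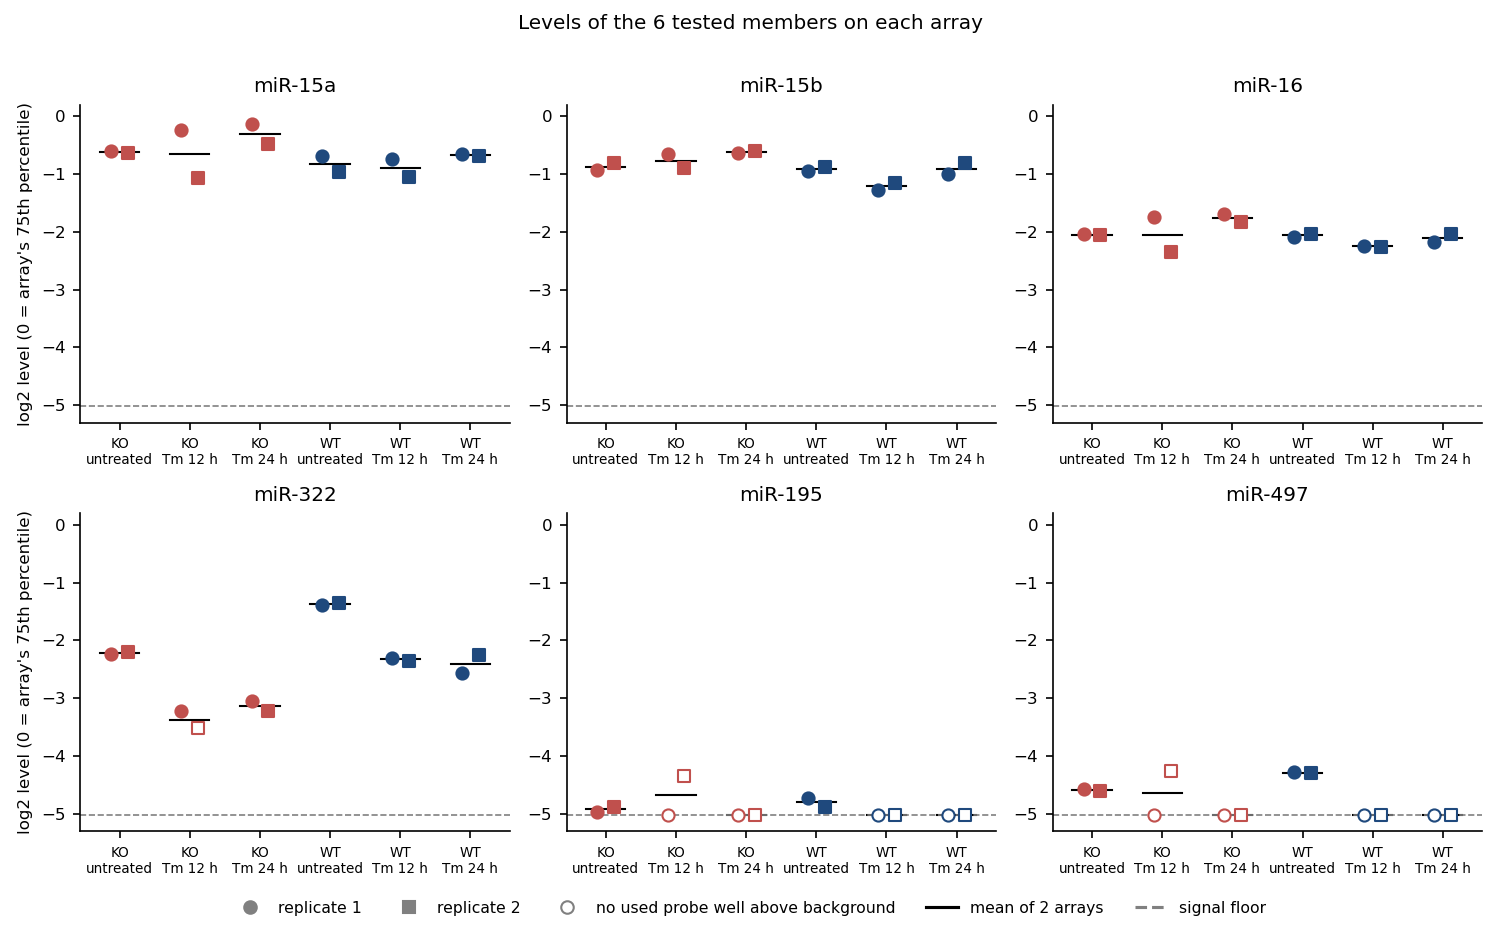
log2 level of each tested member (0 is the array's 75th percentile) on every array, for KO groups in red and WT groups in blue, untreated or after 12 or 24 h of tunicamycin (Tm); lines are means of 2 arrays, and open symbols had no used probe well above background. miR-322 runs between -3.52 and -1.36 with each treated group below its untreated group, while the treated values of miR-195 and miR-497 lie at the floor of -5.02 on all but 1 array.

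In KO cells tunicamycin changed the miR-322 level by -1.15 ± 0.14 log2 units at 12 h (± SE, n = 2 arrays per group, limma with Benjamini-Hochberg adjustment over 175 miRNAs, adjusted p = 0.0018). Only the first of the 2 KO arrays at 12 h had miR-322 well above background, and without the second array the change was -0.999. At 24 h the change was -0.91 ± 0.14 (limma, adjusted p = 0.00498). In WT cells the changes were -0.95 ± 0.14 at 12 h (adjusted p = 0.00138) and -1.04 ± 0.14 at 24 h (adjusted p = 0.00103). These SEs pool the spread of all 6 groups. Replicate SDs of miR-322 were 0.022 and 0.026 in untreated WT and KO cells and 0.038 to 0.22 in treated groups. With only the compared groups fitted, the KO change at 12 h was not called (limma, adjusted p = 0.169). The KO change at 24 h and both WT changes still were. No further change of miR-322 between the time points passed the test: 24 h less 12 h was 0.24 ± 0.14 in KO cells (adjusted p = 0.512) and -0.09 ± 0.14 in WT cells (adjusted p = 0.836). Without the second KO array at 24 h the KO change at 24 h was -0.82 with an adjusted p of 0.0504.

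KO less WT, the miR-322 difference was -0.85 ± 0.14 in untreated cells (limma, adjusted p = 0.00272), -1.05 ± 0.14 at 12 h (adjusted p = 0.00362) and -0.71 ± 0.14 at 24 h (adjusted p = 0.0151). Averaged over the 3 conditions it was -0.87 ± 0.08 (limma, adjusted p = 0.000266). With only the compared groups fitted, the untreated difference was still called. Those at 12 h (limma, adjusted p = 0.205) and 24 h (adjusted p = 0.156) were not. Within scanning runs the difference was -0.85 and -0.85 untreated, -0.92 and -1.17 at 12 h, and -0.47 and -0.96 at 24 h, below 0 in all of them. The call at 24 h was lost without the second KO array at 24 h (adjusted p = 0.104) and without the second WT array at 24 h, where the difference was -0.56.

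A difference between the genotypes in the tunicamycin response of miR-322 did not pass the test of that difference. The KO response less the WT response was -0.20 ± 0.19 at 12 h, with a 95% interval of -0.65 to 0.26 (limma, adjusted p = 0.611). At 24 h it was 0.13 ± 0.19, with an interval of -0.32 to 0.59 (adjusted p = 0.734). Without the arrays of run 3 the 12 h value passed the threshold at -0.32 (adjusted p = 0.034), and without those of run 4 the 24 h value passed it at 0.38 (adjusted p = 0.0238). With a run left out every treated group has 1 array, which is assumed to vary like the untreated replicates that then supply the whole spread, so these p-values are no evidence of a difference.

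miR-322 has 2 probes, and they moved together. The first, A_54_P2503, differed KO less WT by -0.83 untreated, -1.20 at 12 h and -0.72 at 24 h in log2 level. For the second, A_54_P2504, these differences were -0.86, -0.89 and -0.71. On the second KO array at 12 h neither probe was well above background, and on the second KO array at 24 h 1 of them was, while both were on the other 10 arrays. The lowest log2 signal well above background was -2.94 and -3.10 on these arrays. The level of miR-322 lay below it on both, at -3.52 and -3.22.

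**Figure D2:**
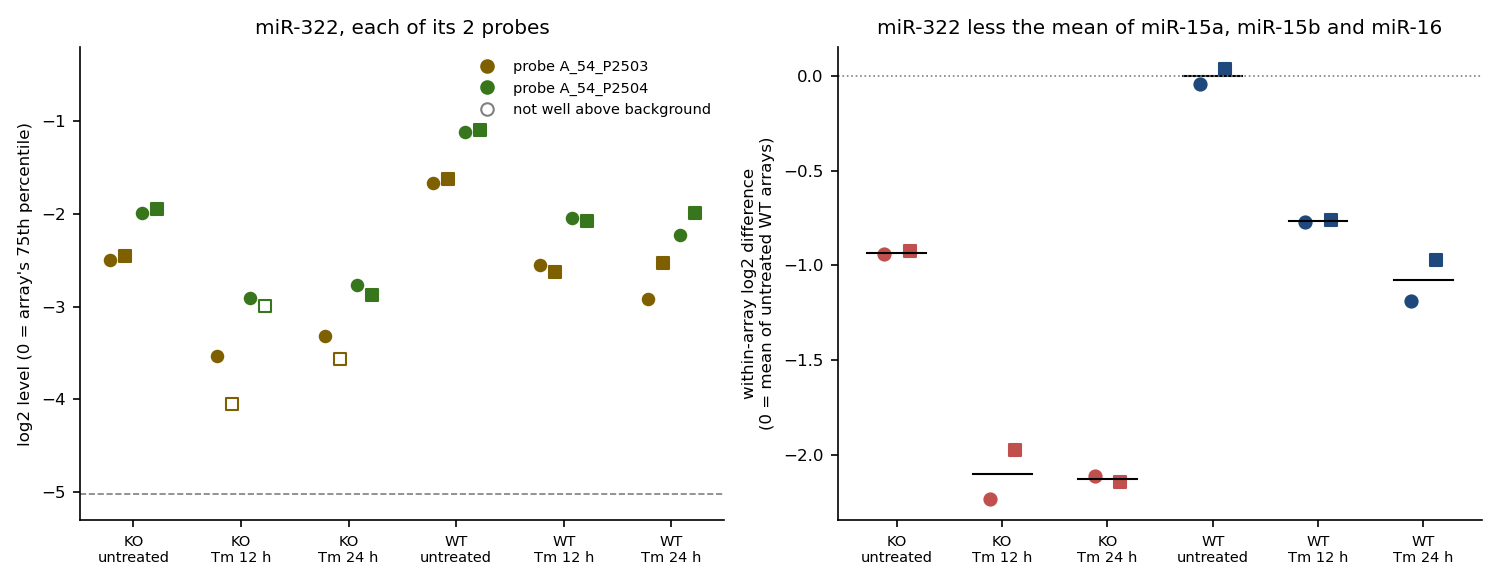
Left, log2 level of each of the 2 miR-322 probes on every array (0 is the array's 75th percentile; open symbols were not well above background; circles and squares are replicates 1 and 2). Right, log2 level of miR-322 less the mean of miR-15a, miR-15b and miR-16 on the same array. It is set to 0 at the mean of untreated WT arrays. KO arrays (red) lie below the WT arrays (blue) of the same condition, and treated arrays below the untreated arrays of the same genotype.

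miR-322 was also set against the mean of miR-15a, miR-15b and miR-16 of the same array. Set to 0 at the mean of untreated WT cells, this log2 difference was -0.94 and -0.92 in untreated KO cells, -2.23 and -1.97 in KO cells at 12 h, and -2.11 and -2.14 at 24 h. In WT cells it was -0.04 and 0.04 untreated, -0.77 and -0.76 at 12 h, and -1.19 and -0.97 at 24 h. KO arrays lay below WT arrays in each condition, and treated below untreated arrays in each genotype, with no overlap. No test was made of this difference, which was lowest in treated KO cells.

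Other ways of scaling and background correction left the direction of miR-322 mostly in place and removed most of its calls. Its treatment differences in both genotypes were below 0 under all 24 alternatives run, among them the 12 that leave out 1 array each. They were called in 18 of 24 for each KO comparison with untreated cells and 19 of 24 for each WT comparison. KO less WT was below 0 in 24 of 24 for untreated cells and at 24 h, and in 23 of 24 at 12 h. It was called in 19 untreated, 18 at 12 h and 15 at 24 h. Many of these alternatives could not turn a sign. No filter on probes, a lower floor, only the compared groups fitted and a replicate or run block left the miR-322 differences unchanged. Leaving out an array or a run outside a comparison also left its difference unchanged. Such cases repeat the reported value and are no separate check of direction. With scaling over all probes, quantile normalization, the scanner software's summed signal or the authors' deposited table, no miR-322 comparison with untreated cells or between genotypes was called. With normexp background correction only the mean of the 3 conditions was (-0.58, KO less WT). The KO less WT difference at 12 h was 0.20 in the deposited table, where the second KO array at 12 h has a log2 value of 7.99, against 5.43 to 7.45 on the other KO arrays. The within-array difference from miR-15a, miR-15b and miR-16 was also taken under 6 kinds of processing, the main one included. These are not 6 separate checks: the summed signal and the deposited table gave the same values. Scaling over all probes gave those of the main processing where only untreated cells and cells at 24 h were compared. The within-array difference was below 0 in all 6. It was -1.17 to -0.22 for KO cells at 12 h against untreated, -1.40 to -0.55 for KO cells at 24 h, -0.80 to -0.47 and -1.09 to -0.57 for WT cells at 12 and 24 h, and -0.93 to -0.67, -1.34 to -0.39 and -1.07 to -0.65 for KO less WT untreated, at 12 h and at 24 h.

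**Figure D3:**
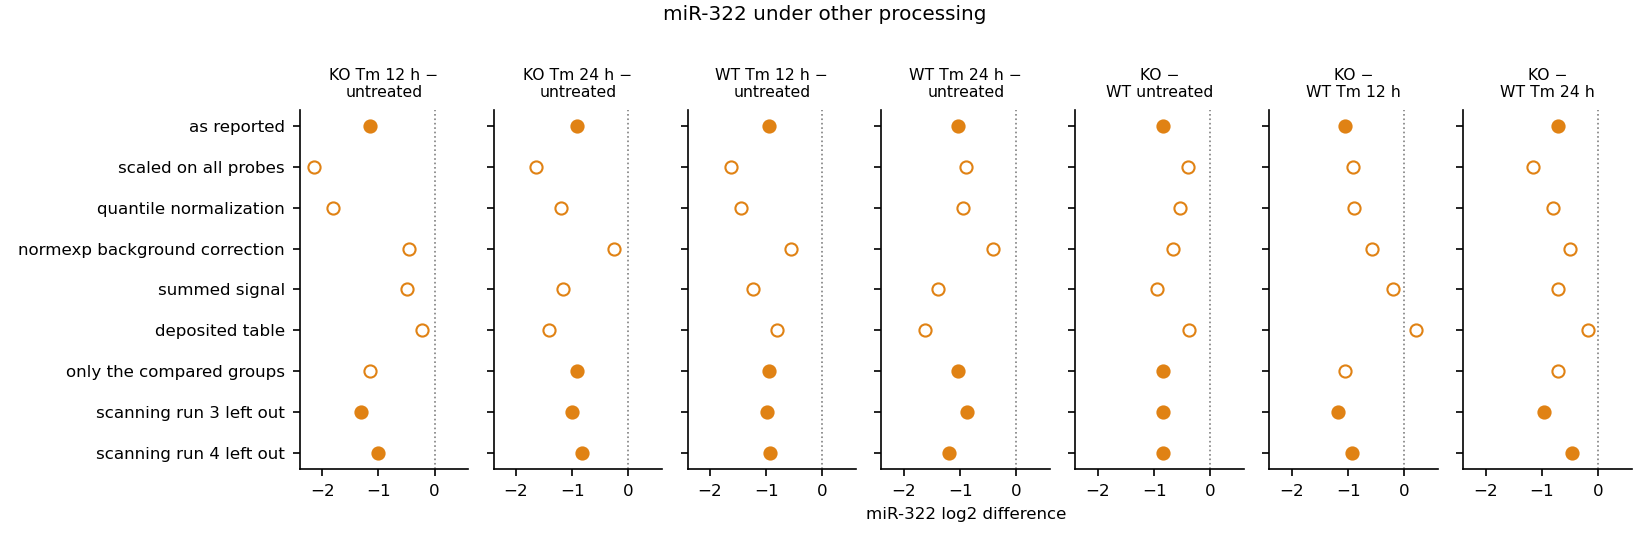
log2 difference of miR-322 in 7 comparisons (panels) as reported and under 8 other ways of processing (from top to bottom); filled symbols passed the adjusted p threshold of 0.05 in limma. All points lie below 0 except that of the deposited table for KO less WT at 12 h (0.20), and most calls are lost under the other scalings and background corrections.

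miR-15a, miR-15b and miR-16, made from the paired genes on chromosomes 14 and 3, passed the test in none of the comparisons with untreated cells. The log2 level of miR-15a in KO cells was -0.60 and -0.64 untreated, -0.23 and -1.07 at 12 h, and -0.13 and -0.48 at 24 h. WT cells had levels of -0.69 and -0.96 untreated, -0.75 and -1.05 at 12 h, and -0.65 and -0.68 at 24 h. KO and WT arrays overlapped at 12 h, and both KO arrays lay above both WT arrays untreated and at 24 h.

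The log2 level of miR-16 in KO cells was -2.04 and -2.06 untreated, -1.75 and -2.35 at 12 h, and -1.70 and -1.83 at 24 h. The WT levels were -2.09 and -2.03 untreated, -2.24 and -2.26 at 12 h, and -2.17 and -2.04 at 24 h. As for miR-15a, the replicates at 12 h in KO cells stood on both sides of the untreated arrays. Of the 12 comparisons of miR-15a and the 12 of miR-16, limma called 0, and 0 had an unadjusted p under 0.05. The difference of miR-16 from untreated in KO cells at 12 h was 0.30 without run 4 and -0.31 without run 3, so its sign depends on which of the 2 arrays is kept. Each of these compares 1 array, with a spread taken from the untreated replicates, and no call is read from them.

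The log2 level of miR-15b in KO cells was -0.94 and -0.81 untreated, -0.66 and -0.90 at 12 h, and -0.63 and -0.59 at 24 h. For WT cells the levels were -0.94 and -0.87 untreated, -1.27 and -1.15 at 12 h, and -1.004 and -0.82 at 24 h. KO arrays lay above WT arrays at both treated time points and overlapped with them untreated. Averaged over the 3 conditions, miR-15b was higher in KO cells by 0.25 ± 0.06 log2 units (limma, adjusted p = 0.0154), opposite in sign to miR-322. At single conditions it did not pass: the difference KO less WT was 0.03 ± 0.11 untreated (adjusted p = 0.995), 0.43 ± 0.11 at 12 h (adjusted p = 0.0519) and 0.30 ± 0.11 at 24 h (adjusted p = 0.145). Within runs 3 and 4 it was 0.61 and 0.25 at 12 h and 0.37 and 0.22 at 24 h. The averaged difference was above 0 but not called under 9 of 25 alternatives, among them scaling over all probes (0.16, adjusted p = 0.991), no filter on probes (0.25, adjusted p = 0.0635) and without run 3 (0.17, adjusted p = 0.0611). The WT change at 12 h against untreated, -0.30 ± 0.11, had an adjusted p of 0.0553.

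Over miR-15a, miR-15b and miR-16 together, the treatment differences ran from -0.03 to 0.10 for KO cells at 12 h, 0.26 to 0.31 for KO cells at 24 h, -0.30 to -0.07 for WT cells at 12 h and -0.05 to 0.16 for WT cells at 24 h. The widest 95% intervals at 12 h were those of miR-15a, from -0.66 to 0.60 in KO cells and from -0.70 to 0.56 in WT cells. Changes of miR-15a of that size would not have been told from 0. The intervals of miR-15b were narrower, -0.16 to 0.35 in KO and -0.56 to -0.05 in WT cells. Those of miR-16 were -0.42 to 0.41 and -0.61 to 0.22. The direction of the 3 members followed the scaling. Over all probes, their mean difference at 12 h was -1.31 in KO cells and -0.85 in WT cells, against 0.02 and -0.19 as reported. The median over all 175 miRNAs was then -0.77 in KO and -0.56 in WT cells. Across the 12 arrays, which share the 6 groups and the scanning runs, the level of miR-15a followed that of miR-16 (Pearson r 0.89), and miR-15b that of miR-16 (r 0.82) and of miR-15a (r 0.65). miR-322 had r between -0.41 and -0.21 with the 3 of them.

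**Figure D4:**
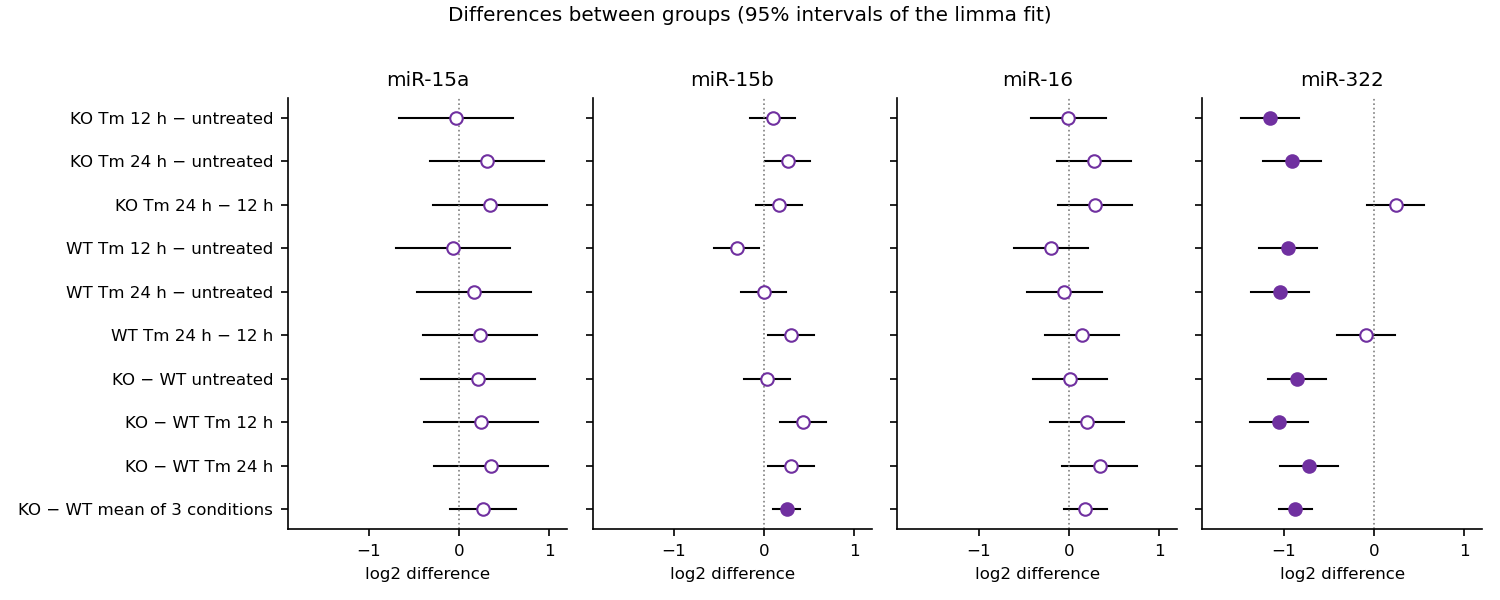
log2 differences (points) with 95% intervals of the limma fit (lines) for miR-15a, miR-15b, miR-16 and miR-322 in the 10 comparisons between groups, KO and WT treatment comparisons above and KO less WT below; filled points passed the adjusted p threshold. miR-322 lies at -0.71 or below in 8 of the 10, whereas the other members stay between -0.30 and 0.43.

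miR-195 and miR-497, neighbours on chromosome 11, were near the limit of the arrays, and each had 1 used probe. miR-195 was well above background only on the 4 untreated arrays, at log2 levels of -4.97 and -4.88 in KO cells and -4.72 and -4.88 in WT cells. After tunicamycin it was at the floor of -5.02 on 7 of 8 arrays and at -4.34, not well above background, on the second KO array at 12 h. Of its 12 comparisons limma called 0, and 0 had an unadjusted p under 0.05. Under some alternatives it was called, with treated values again at or near the floor. With the summed signal at 12 and at 24 h it was -2.73 in KO cells and -3.08 in WT cells. With a floor 4 times lower it was -1.77 at 12 h and -2.14 at 24 h in WT cells. miR-195 entered these tests only through the untreated arrays and was well above background on no treated array, so no change is read from these calls.

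miR-497 was also well above background only when untreated, at -4.58 and -4.60 in KO cells and -4.28 and -4.30 in WT cells. It too was at the floor on 7 of 8 treated arrays, and at -4.27 on the second KO array at 12 h, not well above background. In WT cells the limma differences from untreated were -0.73 ± 0.20 at 12 h (adjusted p = 0.0234) and -0.73 ± 0.20 at 24 h (adjusted p = 0.0237). miR-497 entered the test only through the untreated arrays and all 4 treated WT values are the floor, so the filter and the floor fix that sign, and no change is read from these calls. No fold is given for miR-497. A fold was bounded against the lowest signal well above background on the treated arrays. The bound was under 1 in WT cells at 24 h and in KO cells. For WT cells at 12 h no bound is read, since that lowest signal was -3.67 in log2 on the second array, above the untreated levels. Both WT calls were lost when any 1 of the arrays compared was left out (adjusted p up to 0.106).

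miR-503, the partner of miR-322 in its precursor transcript, has 2 probes, neither of which passed the background flag on any array, and it was not tested. In the authors' deposited table, which lists summed signals of detected miRNAs on a log2 scale, miR-503 has values on 3 arrays, all untreated: 5.40 and 5.01 in KO cells and 4.82 on the first WT array. Of 8 further miRNAs listed as neighbours of miR-322 on chromosome X, 7 are on the array, and none was well above background on any array by the flag used here. The authors' deposited table has values for 3 of them, all on untreated arrays: miR-542-5p has 4.80 on 1 KO array and 5.21 and 5.60 on the WT arrays, miR-542-3p 5.49 on 1 WT array and miR-450b-5p 5.17 on 1 WT array. None of these was tested beside miR-322.

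Counted over the group, limma called 1 of the 6 tested members after tunicamycin in KO cells at 12 h (miR-322, lower), against 17.1% of all 175 miRNAs, and at 24 h again 1 (10.3%). In WT cells 2 were called at 12 h (44.6%) and 2 at 24 h (41.1%), miR-322 and miR-497, of which miR-497 rests on floor values and is not counted as a change. Between 24 h and 12 h limma called 0 in KO cells (2.29%; 0 at an unadjusted p under 0.05) and 0 in WT cells (1.14%; 1 at an unadjusted p under 0.05). The median log2 difference of the 6 members was -0.02 at 12 h and 0.09 at 24 h in KO cells, where that of all 175 was -0.09 and -0.00049. In WT cells it was -0.26 and -0.13, where that of all 175 was -0.27 and -0.21. A count of 1 or 2 in 6 is close to these shares, so nothing particular to the group is read from it.

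Between genotypes 1 member was called in untreated cells (28% of all miRNAs), 1 at 12 h (7.43%) and 1 at 24 h (9.71%), each time miR-322. For the mean of the 3 conditions 2 were called (34.3%), miR-322 lower and miR-15b higher. The members' median difference KO less WT was -0.06 untreated, 0.29 at 12 h and 0.15 at 24 h, where that of all 175 was -0.13, -0.01 and -0.02. For the difference of the tunicamycin responses between KO and WT limma called 0 at 12 h (9.71%; 1 at an unadjusted p under 0.05) and 0 at 24 h (13.1%; 0 at an unadjusted p under 0.05).

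Some fibroblast marker miRNAs were also lower after tunicamycin. Of the 6 tested, limma called 3 lower in KO cells at 12 h (17.1% of all miRNAs called in either direction) and 3 at 24 h (10.3%), and 5 lower in WT cells at 12 h (44.6%) and 5 at 24 h (41.1%). miR-22 was called in none of these, with a difference of -0.28 ± 0.24 in KO cells at 12 h (adjusted p = 0.476), and miR-21 and miR-143 only in WT cells. miR-199a-3p, for example, changed by -1.18 ± 0.14 in KO cells at 12 h (limma, adjusted p = 0.0018) and by -0.89 ± 0.14 in WT cells at 12 h (adjusted p = 0.00224). The summed scaled signal of the 7 markers was 24.5 to 26.7 in untreated KO cells, 13.7 to 20.5 at 12 h and 15.5 to 18.7 at 24 h, and in WT cells 29.9 to 30.9 untreated, 15.3 to 15.7 at 12 h and 15.7 to 16.2 at 24 h. The part of this shift in the miR-322 result was not tested. Between the genotypes 0 of the 6 markers was called in any condition by limma, and 0 had an unadjusted p under 0.05. Their median difference KO less WT was -0.11 untreated, 0.02 at 12 h and 0.04 at 24 h. The 18 markers of other cell types summed to 0.556 in both untreated groups, the sum of their floors. Treated KO cells had at most 0.700 and treated WT cells at most 0.645. Of 5 names listed as pieces of abundant RNAs, 3 were tested, and limma called only miR-689. Against untreated cells it was higher by 1.57 (12 h) and 2.86 (24 h) log2 units in KO cells. In WT cells it was 1.003 and 2.25 higher, with limma adjusted p up to 0.0015 over both genotypes. KO less WT, limma called miR-689 at 24 h (0.62, adjusted p = 0.0411) but not at 12 h or untreated. The part of these shifts in the miR-322 result was not tested either.

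miR-103 and miR-107 carry the group's core bases shifted by 1 position (seed GCAGCAU). miR-103 was lower in WT cells at 12 h (-0.66 ± 0.22, limma, adjusted p = 0.0415) and 24 h (-0.66 ± 0.22, adjusted p = 0.0432), and its change in KO cells at 12 h, -0.65 ± 0.22, did not pass (adjusted p = 0.0892). For miR-107 limma called 0 of the 12 comparisons, and 0 had an unadjusted p under 0.05. Of the opposite strands of the members' precursors, 5 of 7 are on the array and 0 were tested, since none was well above background on both arrays of a group.

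The miRNAs most like each member were ranked by Pearson r over the 12 arrays among 56 others well above background on all arrays. miR-15a was closest to miR-106b (r 0.93), miR-25 (0.90) and miR-29a (0.86), and miR-16 to let-7g (0.93), miR-106b (0.87) and miR-25 (0.86). miR-15b was closest to let-7g (0.77), miR-301a (0.75) and miR-151-5p (0.72). For miR-322, added to this ranking after its values were seen because it was not well above background on every array, the closest were miR-379 (0.89), miR-130a (0.83) and miR-140 (0.80). No miRNA is in the lists of both miR-322 and miR-15a, miR-15b or miR-16. Each list holds only 3 of the 56, so nothing is read from this lack of overlap.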

How the data were processed

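Total RNA was labelled with Cy3 and hybridised to 1-colour Agilent mouse miRNA arrays. Spot intensities were deposited as the authors' Feature Extraction 10.7.1.1 output, per the submitters' processing notes, with background subtracted but arrays not scaled to each other, per the file headers. A series table of log2 values was also deposited, and 2034 of its 2034 values equalled log2 of the summed signal within 0.001. Groups come from the sample labels. Control and outlier spots were left out and the spots of a probe averaged. A probe counted as well above background where more than 0.5 of its spots were. Arrays were scaled on the 75th percentile and a floor of 0.0309 set before log2. A miRNA was the mean of those of its probes that 1 group or more had well above background on both arrays. The test was limma 3.58.1 (R 4.3.3) on all 6 groups, with 6 residual and 1.16 prior degrees of freedom. For each of 12 comparisons p-values were adjusted by Benjamini-Hochberg, with 0.05 as the threshold. A member or list was named where it belonged to the group or to a list chosen for it. The members, lists, tests and naming rules were chosen with earlier results of these data known. The fit was tested on simulated data. Alternatives covered scaling, background correction (normexp on the median spot signal, offset 50), probe summary, filters, floor, samples fitted, blocks and arrays left out. The number of arrays limits the precision.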

Additional observations from a re-analysis of the deposited data

Results flagged for a closer look

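Opposite-strand miRNAs of the members had values in the authors' deposited table only on replicate 2 arrays at 12 h of tunicamycin, outside the comparisons, and none on untreated arrays. For miR-15a* the deposited log2 value was 6.82 on the second KO array at 12 h and 7.83 on the second WT array at 12 h, and for miR-16* it was 7.74 on the second KO array at 12 h. On the scaled probe signals, 3 of the 4 probes of miR-15a* were well above background on that KO array and 1 of 4 on that WT array, while 0 of the 4 probes of miR-16* were. Both arrays belong to run 4 and had the 2 highest 75th percentiles over all probes, 22.9 and 9.50 intensity units, against at most 5.21 on the other arrays. The part of this background in the opposite-strand values was not tested.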

How the results depend on the processing

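Numbers of called members below follow the order KO at 12 h and 24 h and WT at 12 h and 24 h, each against untreated, then KO less WT untreated, at 12 h, at 24 h and as the mean of the 3 conditions (1, 1, 2, 2, 1, 1, 1 and 2 as reported). With scaling over all probes, with the deposited table and with probes well above background on all arrays (3 members tested), all of these counts were 0. With quantile normalization they were 1 for each WT comparison with untreated cells and 0 for each genotype comparison, and the member called in the 4 treatment comparisons was miR-497, not miR-322. With normexp they were 0, except 1 for the mean of the 3 conditions. With the summed signal the genotype counts were 0, and those called with treatment were miR-195 in all 4 comparisons and miR-497 in WT cells, not miR-322. Neither miR-195 nor miR-497 was well above background on a treated array, so their calls are not read as changes. With no filter on probes the WT counts were 1 and 1, KO less WT at 24 h was 0 and the mean was 1, and with a floor 4 times lower the mean was 1. With only the compared groups fitted, KO at 12 h was 0, KO at 24 h was 2, KO less WT untreated was 2, at 12 h 0 and at 24 h 0, and the response difference at 24 h was 1. The cause of these shifts was not tested. The share of all tested miRNAs called is not given for these settings, so nothing particular to the group is read from the counts.

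Without run 4, which was added as an alternative after seeing the data, the counts were 3 and 3 for KO, 4 for WT at 12 h, 2, 3, 2 and 5 between genotypes, and 3 and 3 for the response differences. Without run 3, also added later, they were 4 and 3 for KO, 4 for KO at 24 h against 12 h, 2 and 3 for KO less WT untreated and at 12 h, and 3 and 1 for the response differences. Leaving out 1 array at a time gave 1 to 4, 0 to 3, 1 to 4 and 1 to 3 against untreated, 0 to 4 for KO at 24 h against 12 h, 0 to 0 for WT at 24 h against 12 h, 1 to 2, 1 to 3, 0 to 2 and 2 to 5 between genotypes, and 0 to 3 and 0 to 1 for the response differences. The high ends come from leaving out an array of KO at 12 h. The cause was not tested: replicate differences had SDs over miRNAs of 1.19 at 12 h and 0.801 at 24 h in KO and 1.12 and 0.715 in WT cells, and 0.207 and 0.204 in untreated KO and WT cells. With run 3 or 4 left out each treated group has 1 array, assumed to vary like the untreated replicates, so no call is read from those counts. For arrays or runs left out, too, the share of all miRNAs called is not given. Nothing particular to the group is read from such counts. Neither the replicate block nor the scanning run as a block changed a count: with the replicate block KO at 12 h gave 1. Deviations of same-numbered arrays correlated at 0.82 to 0.94 among the treated groups, where the number also marks the scanning run, at 0.74 between the untreated groups, and at -0.66 to -0.45 between untreated and treated groups, so the numbers were not taken as pairs across all groups.

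Directions that turned were those of miR-497 in WT cells at 24 h with normexp (0.17), of miR-195 in KO cells at 12 h with the summed signal (-2.73), of miR-322 for KO less WT at 12 h in the deposited table (0.20), and of miR-16 in KO cells at 12 h without run 4 (0.30). For miR-497 they were KO at 12 h without run 3 (0.32; -0.43 to 0.32 with 1 array at a time left out), and the mean of the 3 conditions KO less WT without run 4 (-0.10; -0.10 to 0.15 with 1 array at a time left out). Low signal limits miR-195, miR-497 and miR-503, and on run 4 also miR-322 in KO cells.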
